A study of Arabidopsis thaliana with 18 samples.

Results

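Transcript levels in the hypocotyl, the stem below the cotyledons, were compared between dark-grown pifq and WT seedlings of Arabidopsis thaliana to describe what the short pifq hypocotyl gains and loses against the elongated WT hypocotyl. All genes with at least 1 FPKM (a read count scaled by gene length and library depth) in at least 3 of the 6 hypocotyl libraries were taken, which gave 17981 of the 26073 genes listed. The pifq group held 3 libraries of the quadruple mutant pif1pif3pif4pif5 -/-/-/- in the Col-0 ecotype, and the WT group 3 libraries of wild-type Col-0. Both groups were 4 d old and had grown in continuous darkness at 22 ºC on MS medium with 3 percent sucrose. The series also holds cotyledons and apical hooks of both genotypes, and all 18 libraries entered 1 fit that shares the estimate of the spread. The labels name the mutated loci but not the alleles, and do not say where the hypocotyl was cut from the hook and the root. The replicates carry numbers, and nothing says that they came from separate cultures, so p-values cover no more than the spread among these libraries, which may be technical.

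PIF1, PIF3, PIF4 and PIF5 are basic helix-loop-helix transcription factors that accumulate in darkness, bind DNA at the G-box and related PBE-box motifs, and are removed after phytochrome photoreceptors perceive light. In a dark-grown seedling they keep the dark programme running, in which the hypocotyl elongates, the apical hook stays closed and chloroplast development is held back. The hypocotyl is built by cell expansion more than by cell division, so that the genes of wall loosening, water uptake and growth hormones are the ones usually followed in this organ.

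Reads behind the libraries, recovered from the steps of the low values, numbered 18225050 to 20701160 in pifq hypocotyls and 13851968 to 18018697 in WT hypocotyls. In a pifq hypocotyl library 17357 to 18100 genes reached 1 FPKM, against 17159 to 17448 in a WT library. The 100 most abundant nuclear genes held 19.7% to 21.1% of all FPKM in pifq and 22.9% to 24.4% in WT. Libraries of both groups stood apart. In pifq replicate 3 the organelle-encoded share was 0.097%, against 0.87% and 1.61% in the other pifq hypocotyl libraries. That share was 0.1% to 0.119% in pifq hooks and 0.145% to 0.227% in pifq cotyledons. Replicate 3 was thus the pifq hypocotyl library nearest to the other pifq organs in this share. All 4 root markers that passed the filter were at their lowest of the pifq hypocotyl libraries in replicate 3. In WT replicate 2 the share was 3.34%, against 1.01% and 1.85% in the other WT libraries, and seed storage transcripts were present, with CRA1 (a cruciferin) at 44.1 FPKM and at 0.0298 and 0.093 FPKM in WT replicates 1 and 3. WT replicate 2 was also the lowest WT library for 23 of 31 SAUR, 16 of 22 xyloglucan enzyme, 15 of 19 jasmonate and 14 of 20 aquaporin genes, against 6699 of all 17981 genes. Among pifq libraries, replicate 2 was the lowest for 19 of 20 light-harvesting, 31 of 32 photosystem core and 20 of 20 Calvin cycle genes, against 5988 of all. Replicate 3 was the lowest pifq library for 15 of 20 aquaporin genes, against 7258 of all. Markers of leaves and cotyledons summed to 37.1 to 46.5 FPKM in pifq and 31.7 to 45 FPKM in WT hypocotyls. In such bulk samples, fewer cells of a type and less RNA per cell cannot be told apart.

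The loci that the labels name as mutated in pifq were read first. PIF3 (AT1G09530, chromosome 1, 3075768 to 3079654 of TAIR10.1) stood at 3.12, 4.15 and 4.46 FPKM in pifq hypocotyls, replicates 1 to 3 in that order here and below, against 59.2, 56.2 and 40.1 FPKM in WT. It fell by 3.42 on the log2 scale (SE 0.14, adjusted p = 3.07e-11), and PIF5 (AT3G59060) fell to 3.81, 4.33 and 5.22 FPKM in pifq, against 6.65, 9.84 and 7.88 FPKM in WT (log2 change -0.74). PIF1 (AT2G20180) and PIF4 (AT2G43010) stood higher in the libraries labelled pifq. PIF1 had 18.3, 16.1 and 17.2 FPKM in pifq and 4.95, 9.98 and 10.3 FPKM in WT (log2 change 1.01). PIF4 had 17, 17.8 and 22 FPKM in pifq and 4.51, 7.95 and 6.45 FPKM in WT (log2 change 1.47). A value over a whole gene can count reads of a disrupted transcript, which was not tested at any of these loci. With PIF3 and PIF5 lower and PIF1 and PIF4 higher, these levels do not settle whether the labels are right. Of the relatives left intact, PIF7 rose to 6.1, 4.8 and 8.19 FPKM in pifq, against 0.142, 0.480 and 0.178 FPKM in WT (log2 change 2.52), and UNE10, also called PIF8, to 30.6, 31.7 and 39.7 FPKM, against 9.06, 9.91 and 9.93 FPKM. PIL1, a shade marker, was not called (adjusted p = 0.088). The effect on 6 of these 7 loci differed between hypocotyl and hook, against 29.5% of all genes tested. In hooks the log2 change of PIF1 was -0.73 and that of PIF4 0.21.

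In pifq hypocotyls the largest rises included the light-harvesting gene LHCB1.4, QQS, MAH1 and XTH6, and the largest falls included AZI1, EXPA16 and DYL1. Of the 17981 genes, 6708 (37.3%) were called higher in pifq and 3142 (17.5%) lower at a Benjamini-Hochberg adjusted p under 0.05, 9850 (54.8%) in all, and the 3 libraries of one genotype lay apart from those of the other for 10335 genes (57.5%). Rises of at least 2-fold were called for 1581 genes (8.79%) and falls of at least 2-fold for 1008 genes (5.61%). The split between rises and falls depended on the scaling. With each library divided by its median ratio to the others, 4360 genes (24.2%) were higher and 5141 (28.6%) lower, as the median log2 change of all genes moved from 0.18 to -0.03. Of the calls, 68.1% were rises as deposited, against 45.9% with that scaling. The split of changes of at least 2-fold turned round as well, to 1083 higher and 1400 lower. No call changed direction and 2348 were lost. Of the genes at least 2-fold higher as deposited, 1569 of 1581 were still called higher at any size, and all 1008 of those at least 2-fold lower were still called lower. Unless stated, genes named below as risen or fallen were called on both scales, and the libraries of the genotypes did not overlap. Every list count below stands beside the shares of all genes, 37.3% higher and 17.5% lower, or 24.2% and 28.6% after median-ratio scaling.

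**Figure D1:**
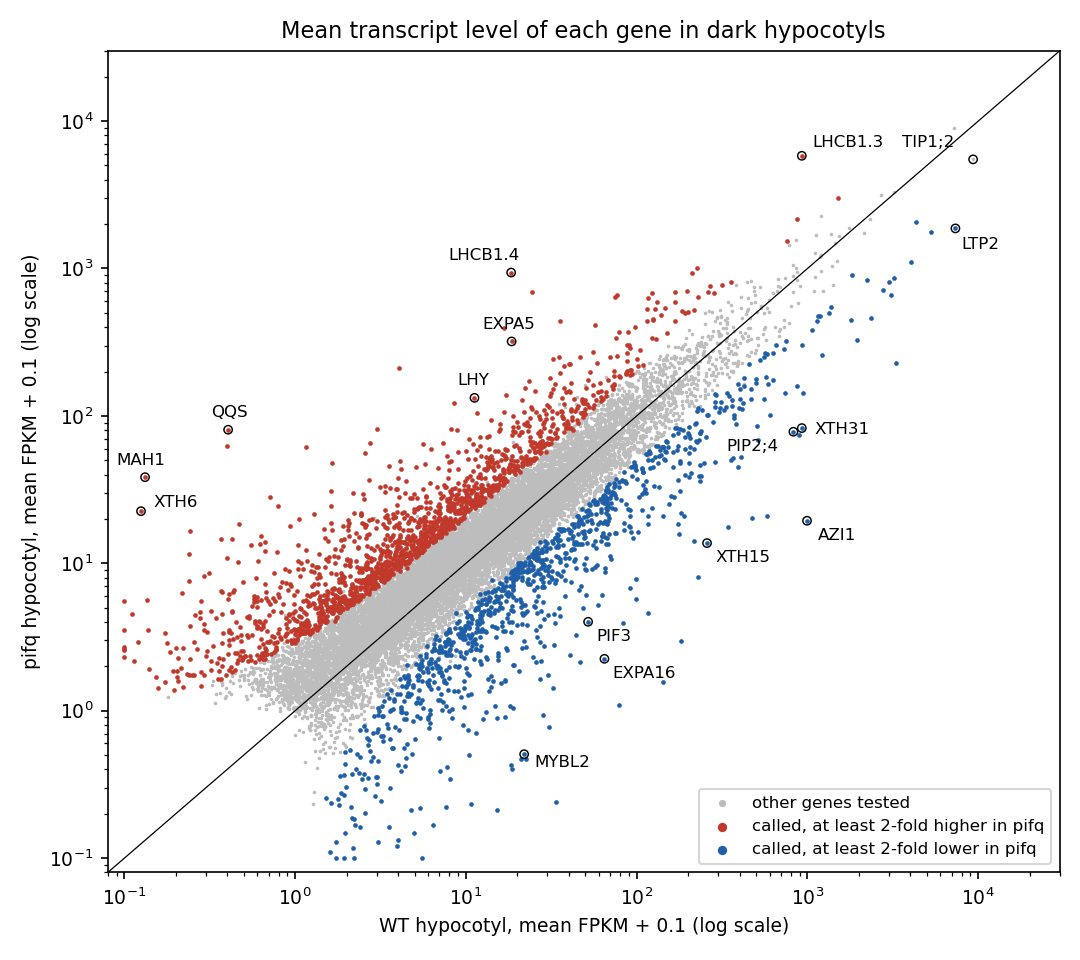
Mean FPKM + 0.1 of each of the 17981 genes in pifq hypocotyls (vertical axis) against WT hypocotyls (horizontal axis), both log scales, 1 point a gene. Red points are the 1581 genes called at least 2-fold higher in pifq, blue points the 1008 called at least 2-fold lower and grey points the others, with LHCB1.3 high among the red points and LTP2 among the blue.

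QQS (AT3G30720), which affects starch content, had 78.2, 83.6 and 79.6 FPKM in pifq hypocotyls and 0.242, 0 and 0.673 FPKM in WT. Its log2 change of 6.0 (SE 0.26, adjusted p = 5.76e-11) was the largest of all genes tested on the log2(FPKM + 1) scale, whereas with a pseudocount of 0.1 the log2 change of MAH1 (8.19) was above the log2 change of QQS (8.08). MAH1 (AT1G57750), an alkane hydroxylase of stem wax, had 38.8, 31.4 and 44.7 FPKM in pifq and 0.0585, 0.0380 and 0 FPKM in WT. XTH6, a xyloglucan endotransglucosylase, had 25.9, 19 and 22.5 FPKM in pifq and 0.0755, 0 and 0 FPKM in WT. These genes were near 0 in the WT libraries and well above 10 FPKM in every pifq library. In all, 34 genes were under 1 FPKM in each WT library and at 5 FPKM or more in each pifq library, among them PPT2, a plastid phosphoenolpyruvate translocator, at 16.4 ± 3.13 FPKM in pifq and 0.143 ± 0.0750 FPKM in WT (mean ± SD, n = 3 each, as in all means below). Other large rises were of the lipase-like genes AT4G28780 (62.2 ± 4.54 FPKM in pifq, 0.300 ± 0.0870 FPKM in WT) and AT1G29660 (396 ± 72.2 FPKM in pifq, 16.7 ± 3.53 FPKM in WT), and of BGLU18, a beta-glucosidase of endoplasmic reticulum bodies (82 ± 24.7 FPKM in pifq, 2.91 ± 2.45 FPKM in WT).

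AZI1 (AT4G12470), a lipid transfer-like protein of systemic immunity, fell to 27.5, 23.1 and 7.37 FPKM in pifq hypocotyls, against 917, 1106 and 957 FPKM in WT (log2 change -5.79, SE 0.42, adjusted p = 2.1e-08). AT2G34700, for an extensin-family wall protein, fell to 3.87, 3.22 and 1.51 FPKM in pifq, against 205, 138 and 204 FPKM in WT. The genotypes did not overlap for either gene, and pifq replicate 3 was the lowest. The neighbouring genes AT2G25150, an acyl-transferase, and CYP82F1, a cytochrome P450, fell together, to 0.996 ± 0.300 and 8.0 ± 2.94 FPKM in pifq, against 78.8 ± 24.6 and 228 ± 34.8 FPKM in WT. EBP, an ethylene-response transcription factor, fell to 20.1 ± 6.57 FPKM in pifq, against 474 ± 9.2 FPKM in WT. DYL1, a dormancy-associated gene, fell to 17.5 ± 4.74 FPKM, against 343 ± 69.2 FPKM, and its relative AT2G33830 to 20.9 ± 6.62 FPKM, against 581 ± 78.5 FPKM. The reverse pattern, under 1 FPKM in each pifq library and at 5 FPKM or more in each WT library, held for 16 genes, among them MYBL2, ASN1 and GRF7.

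Measured as a difference in mean FPKM, the largest called losses were of very abundant transcripts. LTP2 (AT2G38530), a lipid transfer protein of the epidermis, fell to 1943, 1612 and 2056 FPKM in pifq hypocotyls, against 7203, 7232 and 7611 FPKM in WT. The tonoplast aquaporin TIP1;2 fell to 5735, 5367 and 5397 FPKM in pifq, against 10356, 7839 and 9784 FPKM in WT, and the catalase CAT3 to 1736, 1764 and 1822 FPKM, against 5133, 5605 and 5230 FPKM. The peroxidase AT2G37130 fell to 228 ± 71.4 FPKM, against 3313 ± 71 FPKM, and RD19, a papain-like protease, to 328 ± 52.3 FPKM, against 1943 ± 136 FPKM. The largest called gains by that measure were of the antenna gene LHCB1.3 (6826, 5082 and 5535 FPKM in pifq, 1104, 823 and 852 FPKM in WT) and of XTH4 (2999, 2707 and 3295 FPKM in pifq, 1846, 985 and 1709 FPKM in WT). PRP4, a proline-rich wall protein, also rose, with 2274 ± 395 FPKM in pifq and 1196 ± 64.2 FPKM in WT.

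**Figure D2:**
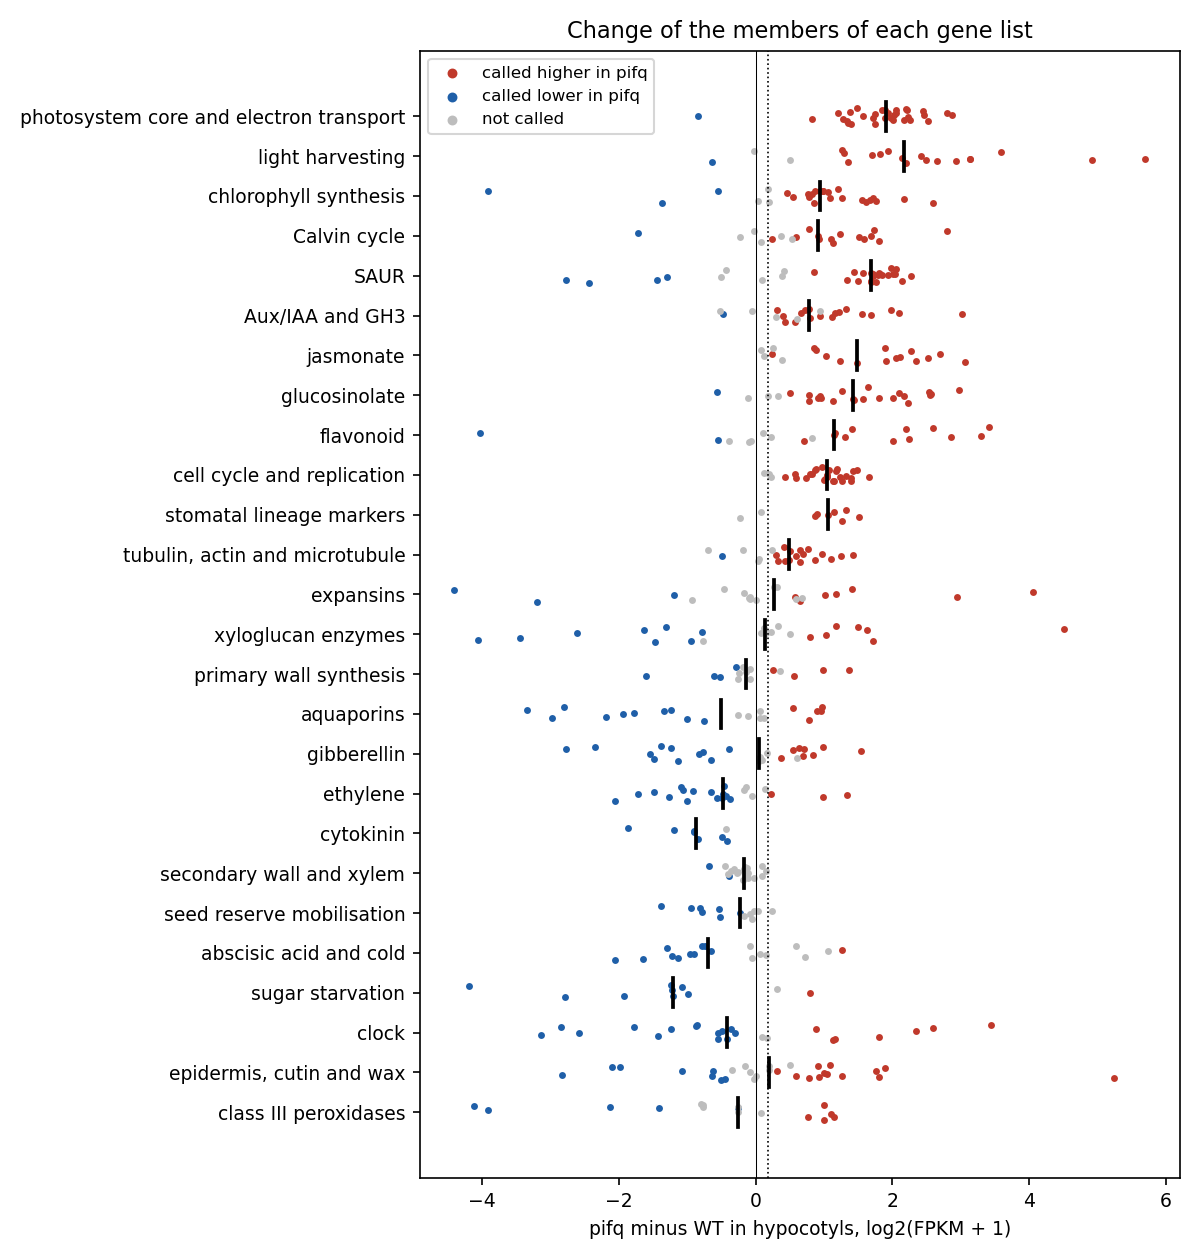
Log2 change, pifq minus WT in hypocotyls on the log2(FPKM + 1) scale (horizontal axis), of each tested member of 26 gene lists (rows), 1 point a gene. Red points were called higher in pifq, blue points lower, grey points were not called; black bars are list medians and the dotted line the median of all genes, 0.18. Photosystem genes lie to the right of the line with 1 exception, and aquaporins spread from -3.35 to 0.969.

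Photosynthesis genes stood higher in the pifq hypocotyl. Their products form the antennae and reaction centres of chloroplasts and make chlorophyll, and in darkness WT seedlings keep them low. Of 20 light-harvesting genes, 17 rose and 1 fell, with a median log2 change of 2.17 against 0.18 over all genes, and together they held 11928 to 16567 FPKM a library in pifq and 2332 to 2513 FPKM in WT. LHCB1.4 had 1165, 817 and 834 FPKM in pifq and 9.01, 23.6 and 22.3 FPKM in WT (log2 change 5.69). LHCA1, of the photosystem I antenna, had 724, 502 and 687 FPKM in pifq and 47.7, 98.7 and 76 FPKM in WT. Every pifq library was above every WT library for both genes. LHCB1.1, LHCB1.2 and LHCB1.3 are near-identical copies, as are LHCB2.1 and LHCB2.2, so how reads were split between them is uncertain. LHCB4.3 was the member that fell, to 8.14 ± 0.385 FPKM in pifq, against 13.2 ± 0.538 FPKM in WT.

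Of 32 photosystem core and electron transport genes 31 rose, 30 of them by at least 2-fold, and 1 fell (median 1.91). PSAN, a subunit of photosystem I, had 272, 187 and 274 FPKM in pifq and 28.8, 31.8 and 35.7 FPKM in WT, and PSBQ2, of the oxygen-evolving complex, 201, 127 and 186 FPKM in pifq and 25.3, 21.8 and 23.1 FPKM in WT. FD1, a ferredoxin, was the member that fell, at 100.1 ± 22.2 FPKM in pifq and 176 ± 4.47 FPKM in WT. Of 27 chlorophyll synthesis genes, 21 rose and 3 fell (median 0.94). HEMA1, for the first committed enzyme, had 146, 118 and 168 FPKM in pifq and 36.6, 26.2 and 30.7 FPKM in WT, and CHLH, of the magnesium chelatase, 218, 178 and 258 FPKM in pifq and 22.5, 57.7 and 32.8 FPKM in WT. The fallen members included both genes of the protochlorophyllide oxidoreductases that gather in etiolated tissue. PORA fell to 11.6, 9.85 and 20.8 FPKM in pifq, against 216, 203 and 227 FPKM in WT, and PORB to 175, 92.7 and 142 FPKM, against 333, 377 and 326 FPKM, while PORC rose to 24.7, 15.9 and 27.3 FPKM, against 6.4, 10.9 and 9.09 FPKM.

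Of 20 Calvin cycle genes, 14 rose and 1 fell (11 rose and 2 fell after median-ratio scaling). GAPA2, a glyceraldehyde-phosphate dehydrogenase, had 250.4 ± 55 FPKM in pifq and 34.9 ± 4.42 FPKM in WT. RBCS1A, a small-subunit gene of Rubisco, had 2329, 1408 and 1888 FPKM in pifq and 2030, 1561 and 1675 FPKM in WT and was not called (adjusted p = 0.796), with overlapping libraries. RBCS2B fell to 149, 70.5 and 169.7 FPKM in pifq, against 395, 421 and 391 FPKM in WT, and RBCS1B rose to 50.1, 35.4 and 60.7 FPKM, against 10.3, 17.5 and 13.9 FPKM, though RBCS1B, RBCS2B and RBCS3B are near-identical and the split of their reads is uncertain. Of 15 carotenoid genes, 8 rose and 1 fell (6 and 1 after median-ratio scaling), with PSY, the entry enzyme, at 51.4 ± 8.18 FPKM in pifq and 22.4 ± 4.83 FPKM in WT. Of 13 plastid regulators and photoprotection genes, 8 rose and 3 fell. ELIP1, an early light-induced protein that binds pigment, fell to 14, 25.2 and 52.8 FPKM in pifq, against 120.4, 305 and 112 FPKM in WT, where replicate 2 was the highest.

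Light signalling genes moved both ways. Of 32 photoreceptors and light regulators, 18 rose and 9 fell (10 rose and 11 fell after median-ratio scaling), with a median log2 change of 0.32. BBX25, a B-box factor, had 65, 65.2 and 62.8 FPKM in pifq and 3.46, 7.74 and 5.29 FPKM in WT. PHOT1, the blue-light receptor of phototropism, had 127, 109 and 157 FPKM in pifq and 31.5, 46.2 and 50.4 FPKM in WT. BBX20 and BBX22, relatives of BBX25, fell to 5.08 ± 0.562 and 7.19 ± 1.58 FPKM in pifq, against 58.9 ± 8.85 and 23.7 ± 3.46 FPKM in WT. HY5, the factor that opposes the PIFs in light, had 33.1, 39.4 and 35.6 FPKM in pifq and 60.5, 47.4 and 41.5 FPKM in WT (log2 change -0.44, adjusted p = 0.024). This call was lost without pifq replicate 1, without pifq replicate 3 and without WT replicate 1. CRY2, a blue-light receptor, fell to 52.2 ± 0.843 FPKM, against 90 ± 7.36 FPKM.

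The genes known from the literature as PIF-induced did not move one way. Of 23, 9 rose and 10 fell (6 rose and 11 fell after median-ratio scaling), and the median log2 change was 0.09, or -0.15 after that scaling. XTH15 (AT4G14130), a wall enzyme, fell to 15.9, 13 and 12 FPKM in pifq, against 367, 143 and 263 FPKM in WT (log2 change -4.05, adjusted p = 3.34e-08). HFR1, which binds and blocks PIFs, fell to 3.27, 3.68 and 2.6 FPKM, against 43.2, 38.3 and 51.3 FPKM, and SOM, a repressor of seed germination, to 7.31, 15.4 and 3.25 FPKM, against 68.9, 94.7 and 33 FPKM. In each the highest pifq library was below the lowest WT library. Members that rose included PRE1, a growth-promoting HLH protein without a DNA-binding domain, at 54.9, 45.6 and 58.5 FPKM in pifq and 6.74, 3.12 and 13 FPKM in WT, and ATHB2, a homeobox factor of shade growth, at 14.3, 15 and 20.6 FPKM in pifq and 3.41, 3.79 and 6.16 FPKM in WT. Among 18 HLH growth regulators, 5 rose and 5 fell. IBH1, which inhibits cell elongation, fell to 20.6, 24.2 and 17.3 FPKM in pifq, against 59.6, 36.7 and 57.1 FPKM in WT.

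Auxin-response genes rose in the short hypocotyl. SAUR proteins keep the plasma membrane proton pump active and so acidify the wall in growing cells. Of 31 SAUR genes, 22 rose and 4 fell, with a median log2 change of 1.68, and together they held 402 to 421 FPKM a library in pifq and 153 to 232 FPKM in WT. SAUR19 (AT5G18010) had 20.2, 26.3 and 23.9 FPKM in pifq and 6.49, 3.08 and 5.84 FPKM in WT (log2 change 2.04, SE 0.31, adjusted p = 4.71e-05). SAUR26 had 18, 22.6 and 20.5 FPKM in pifq and 4.29, 3.75 and 5.93 FPKM in WT, and SAUR50 46.7, 41.3 and 41.8 FPKM in pifq and 13.3, 9.86 and 15.9 FPKM in WT. Every pifq library exceeded every WT library for these genes, and WT replicate 2 was the lowest. Without that library 21 SAUR genes rose and 4 fell. The SAUR19 to SAUR24 genes and the SAUR61 to SAUR68 genes lie in tandem groups of near-identical copies, so their values may share reads. SAUR41 fell to 3.16, 1.57 and 1.55 FPKM in pifq, against 13.6, 15.1 and 17.2 FPKM in WT, and SAUR17 to 0.365, 0 and 0 FPKM, against 6.03, 3.36 and 13.2 FPKM.

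The promoters of SAUR26 and SAUR19 are shown, as members of the list in which the PBE-box was most frequent among the lists searched, beside that of SOM, which moved the other way. Each run is the 250 bases before the annotated start, TAIR10.1 genome of RefSeq, read 5′ to 3′ on the strand of the gene, with PBE-box matches (CACATG or its reverse complement CATGTG) in capitals. SAUR26 lies at chr3:982807-983056 (plus strand), SAUR19 at chr5:5963406-5963655 (minus strand) and SOM at chr1:954040-954289 (plus strand), where the capitals are 2 overlapping matches.
SAUR26: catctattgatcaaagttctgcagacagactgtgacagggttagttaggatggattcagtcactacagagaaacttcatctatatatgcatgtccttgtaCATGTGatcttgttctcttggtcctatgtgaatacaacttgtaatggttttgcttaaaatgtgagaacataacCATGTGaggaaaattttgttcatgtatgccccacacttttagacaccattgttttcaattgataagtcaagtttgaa
SAUR19: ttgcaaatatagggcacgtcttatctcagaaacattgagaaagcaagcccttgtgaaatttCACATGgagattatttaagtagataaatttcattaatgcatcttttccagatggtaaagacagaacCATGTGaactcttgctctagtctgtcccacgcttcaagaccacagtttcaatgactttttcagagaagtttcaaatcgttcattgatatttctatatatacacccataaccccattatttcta
SOM: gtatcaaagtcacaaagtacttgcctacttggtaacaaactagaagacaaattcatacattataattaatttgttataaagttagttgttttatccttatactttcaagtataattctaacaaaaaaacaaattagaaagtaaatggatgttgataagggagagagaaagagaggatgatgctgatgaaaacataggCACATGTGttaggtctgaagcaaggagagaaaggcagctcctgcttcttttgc

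A PBE-box lay within 250 bases before and 50 after the start in 19 of 31 SAUR promoters (61.3%), against 12.8% of the 17825 promoters read, and a G-box (CACGTG) in none, against 9.15%. Tandem copies share sequence and are not separate instances. A match is a description of the letters, not a site bound in these samples.

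Repressors of the auxin response and enzymes that conjugate auxin rose as well. Of 24 Aux/IAA and GH3 genes, 18 rose and 1 fell (median 0.78; 15 rose after median-ratio scaling). IAA6 had 27.1, 27.5 and 40.9 FPKM in pifq and 3.63, 0.674 and 7.22 FPKM in WT, GH3.6, an auxin-conjugating enzyme, 75.1, 72.4 and 84.8 FPKM in pifq and 20.4, 23 and 14.4 FPKM in WT. The groups did not overlap for either gene, and IAA6 was lowest in WT replicate 2. IAA17 was not called, with 312, 329.6 and 369 FPKM in pifq and 650.5, 313 and 549 FPKM in WT. Enzymes of auxin synthesis were among the genes that fell. YUC5, YUC8 and YUC9 are flavin monooxygenases of the last step of auxin synthesis and TAA1 makes their substrate. TAA1 fell to 4.28, 3.79 and 2.09 FPKM in pifq, against 8.78, 14.7 and 12.1 FPKM in WT, and YUC5 to 0.265, 0.335 and 0.268 FPKM, against 4.22, 3.53 and 4.37 FPKM. YUC9 fell to 0.739, 1.3 and 0.205 FPKM, against 6.63, 3.42 and 4.42 FPKM, and YUC8 to 1.65, 2.31 and 1.25 FPKM, against 3.42, 4.08 and 4.0 FPKM. The genotypes did not overlap for any of the 4. Of the transport genes, PIN3 and PIN7, auxin exporters, rose to 125 ± 9.86 and 80.2 ± 11.8 FPKM in pifq, against 68.2 ± 13.8 and 39.8 ± 5.67 FPKM in WT, while the kinase WAG2 fell to 26.6 ± 3.92 FPKM, against 63.9 ± 8.76 FPKM. The whole list of 28 synthesis, transport and response genes held 9 rises and 7 falls (7 and 13 after median-ratio scaling).

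All 3 gibberellin receptor genes and the abundant gene GASA4 were lower in pifq. Of 24 gibberellin genes, 8 rose and 11 fell (5 and 11 after median-ratio scaling), and their summed level was 1115 to 1255 FPKM in pifq and 3020 to 3912 FPKM in WT. GASA4 alone held 441 to 499.5 FPKM of that sum in pifq and 2023 to 2716 FPKM in WT. The median log2 change was 0.05, or -0.14 after median-ratio scaling. Among the receptor genes, GID1A fell to 16.1 ± 1.74 FPKM in pifq, against 25.8 ± 2.55 FPKM in WT, GID1B to 8.94 ± 4.85 FPKM, against 26.2 ± 4.37 FPKM, and GID1C to 9.13 ± 1.2 FPKM, against 27.3 ± 2.44 FPKM. DELLA proteins repress gibberellin responses. RGL3, a DELLA gene, rose to 23.6, 31.9 and 27.2 FPKM in pifq, against 8.5, 10.1 and 7.83 FPKM in WT, and RGL1 to 33.3 ± 1.82 FPKM, against 20.2 ± 3.93 FPKM, whereas RGA1 was not called at 54.6 ± 1.7 FPKM in pifq and 51.2 ± 4.29 FPKM in WT. GA20OX1, of gibberellin synthesis, rose to 13.2 ± 1.55 FPKM, against 6.22 ± 1.4 FPKM, and GA3OX1, of the last step, fell to 6.6 ± 1.04 FPKM, against 16.3 ± 5.23 FPKM. GASA4, a gibberellin-regulated cysteine-rich peptide gene, fell to 499.5, 441 and 448 FPKM in pifq, against 2357, 2023 and 2716 FPKM in WT (log2 change -2.34).

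Ethylene and cytokinin genes fell more often than they rose. Of 22 ethylene genes, 3 rose and 15 fell (1 and 16 after median-ratio scaling), with a median log2 change of -0.48, and without pifq replicate 3 or without WT replicate 2 only 1 rose. The receptor gene ETR2 fell to 5.29, 5.69 and 2.58 FPKM in pifq, against 21.1, 24.2 and 18.5 FPKM in WT. ARL, an organ growth gene, fell to 16.2 ± 1.0 FPKM in pifq, against 47.6 ± 4.8 FPKM in WT. EIN3, the transcription factor of the pathway, was not called on the deposited scale and was called lower after median-ratio scaling, at 73.5 ± 4.92 FPKM in pifq and 76.2 ± 5.3 FPKM in WT. Of 8 cytokinin genes that passed the filter, of 16 listed, 0 rose and 7 fell. ARR6, a response regulator, fell to 9.51, 9.21 and 6.92 FPKM in pifq, against 36.8, 26.1 and 38.7 FPKM in WT, and ARR4 to 28.4 ± 7.15 FPKM, against 65.1 ± 4.35 FPKM. Of 18 brassinosteroid genes, 4 rose and 6 fell (3 and 10 after median-ratio scaling), none by 2-fold. The synthesis enzyme ROT3 fell to 33.4 ± 5.2 FPKM, against 67.1 ± 4.82 FPKM, and DWF1 rose to 256 ± 12.5 FPKM, against 166 ± 6.9 FPKM. BRI1, the receptor, had 64.8 ± 2.5 FPKM in pifq and 63 ± 3.07 FPKM in WT and was not called.

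Expansins loosen the wall in acid, and xyloglucan enzymes (XTH) cut and rejoin the chains that tie cellulose fibrils. Of 21 expansins, 7 rose and 3 fell (5 fell without WT replicate 3), and of 22 XTH genes 7 rose and 8 fell, beside 37.3% and 17.5% of all genes tested. EXPA5 (AT3G29030) had 334, 284 and 342 FPKM in pifq and 18.6, 15.7 and 21 FPKM in WT (log2 change 4.05, SE 0.24, adjusted p = 2.01e-09). EXPB3 had 131, 143 and 138 FPKM in pifq and 15.5, 15.7 and 20 FPKM in WT. EXPA16 (AT3G55500) fell to 3.22, 1.84 and 1.39 FPKM in pifq, against 57.9, 55.5 and 80.5 FPKM in WT (log2 change -4.4, adjusted p = 9.01e-10). EXPA9 fell to 16.5, 26.3 and 12.5 FPKM, against 185, 122 and 217 FPKM. The genotypes did not overlap for any of these genes. Summed expansin FPKM was 1902 to 1982 in pifq and 1242 to 1626 in WT. Among XTH genes, XTH31 fell to 84.8, 86.7 and 76.3 FPKM in pifq, against 788, 827 and 1164 FPKM in WT, and XTH33, which is anchored in the membrane, to 7.72, 6.27 and 5.52 FPKM, against 44.1, 32.8 and 60.5 FPKM. XTH17 rose to 425, 439.5 and 465 FPKM, against 206, 87 and 210.1 FPKM, with WT replicate 2 the lowest, and its call was lost without that library. TCH4, the touch-induced XTH22, rose to 50.7 ± 19.1 FPKM, against 14 ± 2.65 FPKM. Summed XTH FPKM overlapped between the genotypes, at 4586 to 5209 in pifq and 3420 to 5163 in WT.

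**Figure D3:**
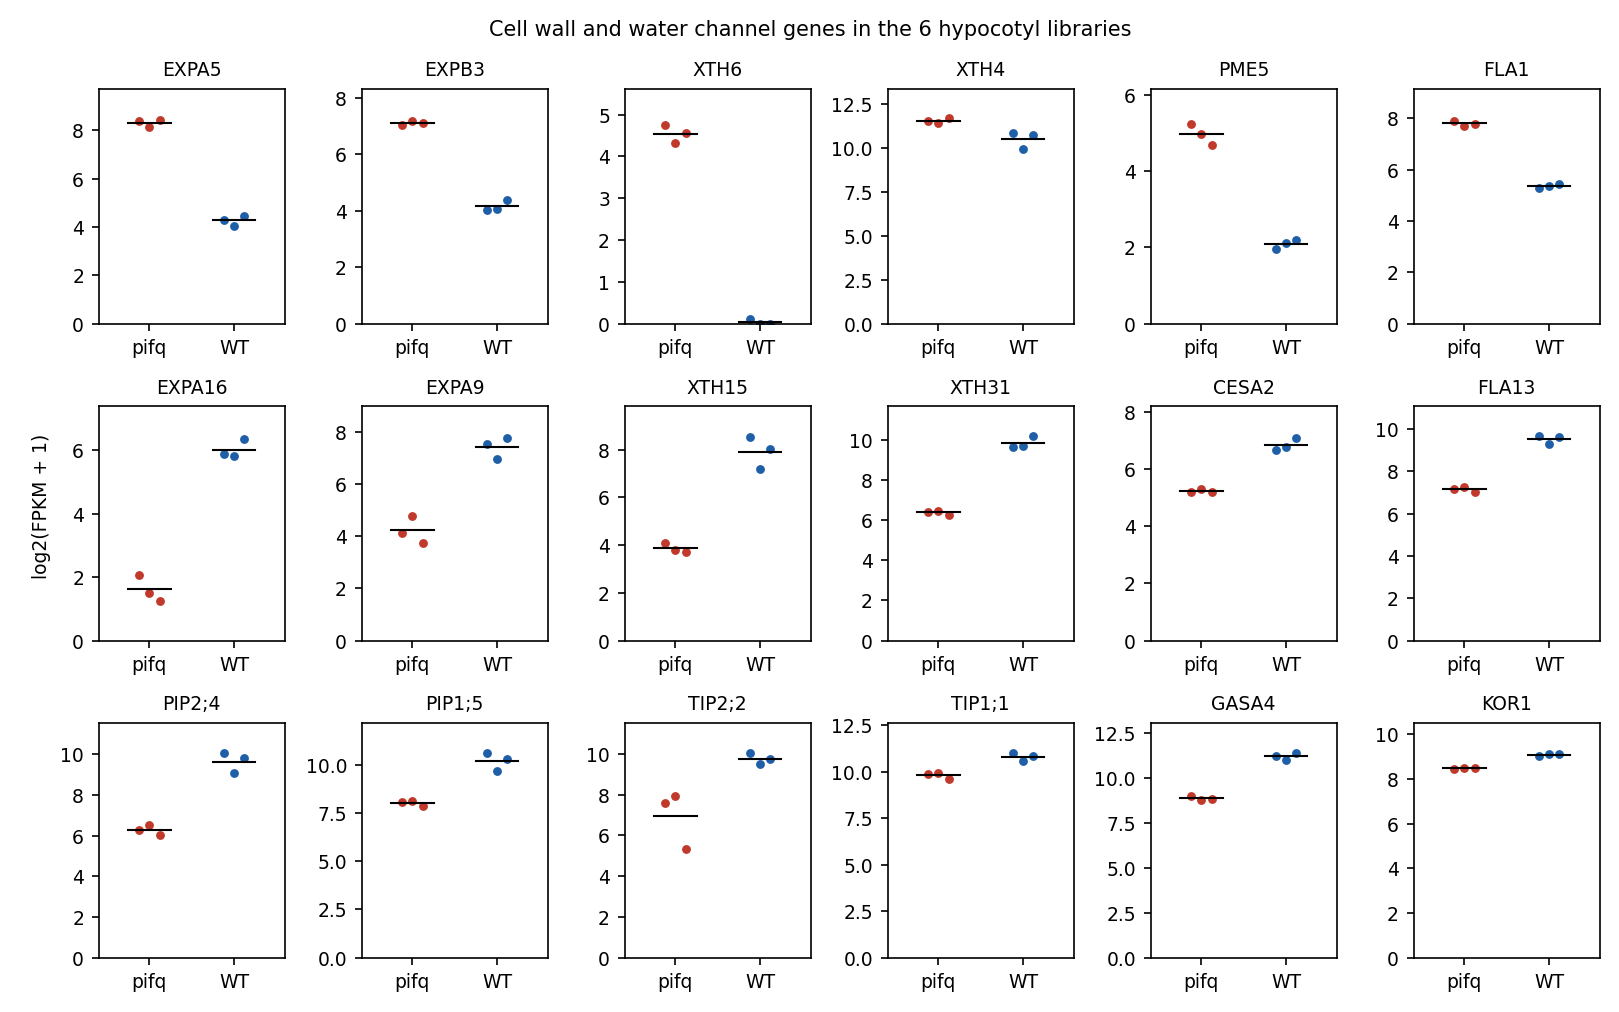
Level on the log2(FPKM + 1) scale (vertical axis) of 18 wall, aquaporin and growth genes in the 3 pifq (left, red) and 3 WT (right, blue) hypocotyl libraries, 1 point a library and a line at the mean. The top row shows genes higher in pifq, from EXPA5 to FLA1, and the lower rows genes lower in pifq, from EXPA16 to KOR1.

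Of 15 primary wall synthesis genes, 4 rose and 4 fell (2 rose and 9 fell after median-ratio scaling; 2 rose without pifq replicate 3, without WT replicate 2 or without WT replicate 3). CESA1, a subunit of the primary-wall cellulose synthase, fell to 255, 282 and 254 FPKM in pifq, against 335, 446 and 362 FPKM in WT, and CESA2, which can stand in for the CESA6 subunit, to 35.2, 38.2 and 35.4 FPKM, against 99, 109 and 133 FPKM. KOR1, a glucanase of cellulose synthesis, fell to 358 ± 6.19 FPKM, against 547 ± 22.5 FPKM, whereas CESA6 was called lower only after median-ratio scaling, at 154 ± 2.22 FPKM in pifq and 169 ± 12.7 FPKM in WT. CSLC4, which makes the xyloglucan backbone, rose to 175, 155 and 191 FPKM, against 58.8, 56.7 and 88.7 FPKM. Of 16 pectin and wall sensing genes, 6 rose and 4 fell (5 and 7 after median-ratio scaling), beside 37.3% and 17.5% of all genes. PME5, a pectin methylesterase, rose to 36.6, 30.2 and 24.8 FPKM, against 2.9, 3.33 and 3.54 FPKM, and PME3 fell to 135, 125 and 113 FPKM, against 319.7, 265 and 345 FPKM. Of 10 arabinogalactan protein genes, 5 rose and 1 fell (5 and 2 after median-ratio scaling), with FLA1 at 241, 209.5 and 219 FPKM in pifq and 37.8, 40.2 and 43 FPKM in WT, and FLA13, the member that fell, at 144, 154 and 128 FPKM in pifq and 806, 628 and 794 FPKM in WT.

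Of 22 tubulin, actin and microtubule genes, 16 rose and 1 fell, 3 of the rises by at least 2-fold, while after median-ratio scaling 10 rose and 4 fell. TUB8 had 119 ± 6.3 FPKM in pifq and 55.9 ± 14.4 FPKM in WT, and MAP65-1, which bundles microtubules, 22.8 ± 4.64 FPKM in pifq and 7.8 ± 0.222 FPKM in WT. ACT8 fell to 402 ± 20.2 FPKM, against 567 ± 6.4 FPKM.

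Water channel genes fell more often than they rose. Aquaporins of the plasma membrane (PIP) and the vacuole membrane (TIP) carry the water that fills expanding cells. Of 20, 5 rose and 10 fell (3 and 12 after median-ratio scaling), 9 of the falls by at least 2-fold, and the median log2 change was -0.51. Their sum was 14937 to 16394 FPKM a library in pifq and 18868 to 26176 FPKM in WT. PIP2;4 (AT5G60660) fell to 76.9, 91.7 and 65.3 FPKM in pifq, against 1061, 534 and 886 FPKM in WT (log2 change -3.35, adjusted p = 1.34e-05). PIP1;5 fell to 264, 274 and 232 FPKM, against 1564, 818 and 1252 FPKM, and TIP2;2 to 195, 244 and 38.9 FPKM, against 1049, 714 and 856 FPKM. All 3 pifq libraries were below all WT libraries, with pifq replicate 3 far below the others for TIP2;2. TIP2;3, also in the list of root markers, fell to 57.5, 79.5 and 9.13 FPKM, against 315, 258 and 284 FPKM. The 4 of 13 root markers that passed the filter summed to 15.1 to 101 FPKM in pifq and 271 to 327 FPKM in WT, mostly TIP2;3, were lowest in pifq replicate 3, and their part in the aquaporin values was not tested. Among the root markers below the filter, RSL4, COBL9 and SMB were listed at 0 in pifq replicate 3. In pifq replicates 1 and 2, PLT1, PLT2, WOX5, RHD6, RSL4, SMB and BRN1 were above every WT library, unlike the sum. RHD6, the highest, had 1.26 and 2 FPKM there, against 0.389, 0.456 and 0.527 FPKM in WT. COBL9 overlapped with WT in those libraries, and NRT2.1 was listed at 0 in both. PIP2;7 rose to 1657, 1534 and 1512 FPKM, against 986, 609.5 and 986 FPKM, and PIP2;1 was not called at 1500 ± 63.1 FPKM in pifq and 1448 ± 156 FPKM in WT. Of 16 proton pump and PP2C.D phosphatase genes, 7 rose and 2 fell (4 and 3 after median-ratio scaling), beside 37.3% and 17.5% of all genes. AHA2, a main plasma membrane proton pump, was not called at 461 ± 67.5 FPKM in pifq and 413 ± 23.5 FPKM in WT, and AHA1 fell to 155 ± 11.6 FPKM, against 216 ± 24.2 FPKM.

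Xylem genes showed small differences on the deposited scale. Of 19 secondary wall and xylem genes, 0 rose and 2 fell, with a median log2 change of -0.17, and after median-ratio scaling 0 rose and 15 fell. Without pifq replicate 3 or without WT replicate 3 the falls numbered 4. FLA11, of xylem fibres, fell to 47.9 ± 3.79 FPKM in pifq, against 77.5 ± 10.4 FPKM in WT. XCP2, a protease of dying vessel cells, had 117 ± 5.4 FPKM in pifq and 130.4 ± 9.5 FPKM in WT and was called lower only after median-ratio scaling. Of 14 phenylpropanoid genes, 1 rose and 5 fell (1 and 9 after median-ratio scaling; 3 fell without pifq replicate 1 or without WT replicate 3). The gene that rose was FAH1, the ferulate 5-hydroxylase of syringyl lignin and sinapate, at 32.5, 26.8 and 33.7 FPKM in pifq and 1.0, 2.1 and 1.45 FPKM in WT. CYP98A3, an earlier hydroxylase of the pathway, fell to 66.8 ± 6.81 FPKM, against 107 ± 1.62 FPKM. Of 16 class III peroxidases, which cross-link or loosen walls, 5 rose and 5 fell, and their sum was 1756 to 2063 FPKM in pifq and 6840 to 7191 FPKM in WT. PRXCB fell to 87.9, 101 and 73.2 FPKM, against 361, 399 and 391 FPKM, and AT5G19890 to 0.463, 0.640 and 0 FPKM, against 22.2, 23.5 and 21.2 FPKM.

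Of 29 epidermis, cutin and wax genes, 13 rose and 8 fell (12 and 11 after median-ratio scaling). Their sum was 5518 to 6350 FPKM in pifq and 11518 to 12476 FPKM in WT, and LTP2 was the greater part of it in WT only. CER1, of alkane formation, fell to 39.2, 47.2 and 68.8 FPKM in pifq, against 339.6, 417 and 339 FPKM in WT, and WSD1, a wax ester synthase, to 15.8, 18 and 29.1 FPKM, against 95.6, 74.3 and 104 FPKM. MAH1, which uses alkanes, rose as given above, and DCR, an acyltransferase of cutin, to 16.8, 16.5 and 16.7 FPKM, against 2.73, 5.6 and 4.18 FPKM. ATML1 and PDF2, homeobox factors of epidermal identity, rose to 60.7 ± 4.12 and 51.6 ± 3.57 FPKM in pifq, against 24.9 ± 1.72 and 24.8 ± 4.44 FPKM in WT. Of 9 stomatal lineage markers that passed the filter, of 15 listed, 7 rose and 0 fell, with SCRM2, a partner of the stomatal bHLH factors, at 13.4, 8.45 and 14 FPKM in pifq and 2.6, 4.01 and 3.85 FPKM in WT, and TMM, a receptor-like protein of stomatal spacing, at 5.42 ± 1.43 FPKM in pifq and 2.5 ± 0.617 FPKM in WT.

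Vascular and inner-tissue markers did not move as one. Of 16 phloem and procambium markers, 9 rose and 2 fell (7 and 4 after median-ratio scaling). The genes that fell encode sugar exporters of phloem parenchyma. SWEET11 fell to 59.9, 55.7 and 42.5 FPKM in pifq, against 430.3, 362 and 431 FPKM in WT, and SWEET12 to 72.7, 76.7 and 66.1 FPKM, against 188, 184 and 202 FPKM, whereas SUC2, the sucrose importer of companion cells, had 114 ± 8.03 FPKM in pifq and 131 ± 17.5 FPKM in WT and was called lower only after median-ratio scaling or without WT replicate 3. SEOR1, a sieve element protein, rose to 56.5 ± 0.146 FPKM, against 31.1 ± 6.49 FPKM. Of 16 endodermis and suberin genes, 4 rose and 1 fell (4 and 4 after median-ratio scaling). The rises were CYP86B1 (14.2, 13.7 and 2.99 FPKM in pifq, 1.55, 2.42 and 0.422 FPKM in WT), FAR4, FAR5 and GPAT5, enzymes of suberin monomers. Each was lowest of the pifq libraries in replicate 3, and for GPAT5 that library was below WT replicate 2. CASP1, a Casparian strip protein, had 151, 172 and 168 FPKM in pifq and 481, 329 and 463 FPKM in WT and was not called (adjusted p = 0.169), although the genotypes did not overlap. Of 13 root markers, 4 passed the filter and 1 was called, and IRT1, the iron transporter of the root epidermis, had 3.66, 7.33 and 0.0309 FPKM in pifq and 0.532, 3.79 and 0.296 FPKM in WT and was called higher only without pifq replicate 3. The part of root tissue in the suberin values was not tested.

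Glucosinolate and jasmonate genes rose more often than they fell. Of 25 glucosinolate genes, 21 rose and 1 fell, with a median log2 change of 1.43, and they held 1533 to 1573 FPKM a library in pifq and 596 to 808 FPKM in WT. CYP79B3, which starts indole glucosinolates from tryptophan, had 313, 338 and 358 FPKM in pifq and 79.8, 53.4 and 94.6 FPKM in WT. MAM1, which lengthens methionine for the aliphatic route, had 10.7, 10.1 and 9.99 FPKM in pifq and 0.920, 0.986 and 0.902 FPKM in WT. For both genes every pifq library was above every WT library. MYB29, a regulator of the aliphatic route, was listed at 0 in all 3 WT libraries and at 2.48, 2.15 and 2.85 FPKM in pifq. Of 19 jasmonate genes, 15 rose and 0 fell, with a median of 1.47, and 12 rose without WT replicate 2, the lowest WT library for 15 of the 19. VSP2, a vegetative storage protein, had 73.1, 86 and 82.2 FPKM in pifq and 8.05, 7.48 and 10.9 FPKM in WT, and OPR3, a synthesis enzyme, 118, 173 and 117 FPKM in pifq and 39.9, 23.1 and 29.4 FPKM in WT. JAZ9, a repressor of the response, had 56.7, 63.2 and 55.6 FPKM in pifq and 15.1, 9.38 and 10.2 FPKM in WT.

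Of 20 flavonoid genes, 12 rose and 2 fell (median 1.15). DFR, the branch enzyme to anthocyanins, had 8.26, 10.3 and 15.7 FPKM in pifq and 0.146, 0.0475 and 0.228 FPKM in WT, and LDOX, the next enzyme, 11.4, 11.3 and 16.9 FPKM in pifq and 0.119, 0.825 and 0.413 FPKM in WT. TT4, the chalcone synthase at the entry, had 67.1, 52.2 and 64.1 FPKM in pifq and 15.6, 63.8 and 38.1 FPKM in WT and was not called (adjusted p = 0.058), with overlapping libraries, and was called higher without WT replicate 2. MYBL2, a repressor of anthocyanin synthesis, fell to 0.683, 0.157 and 0.381 FPKM in pifq, against 19.1, 25.4 and 21 FPKM in WT (log2 change -4.03).

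Sugar starvation, abscisic acid and seed reserve genes fell more often than they rose. Of 10 sugar starvation genes, 8 fell and 1 rose, with a median log2 change of -1.21. ASN1 (AT3G47340), the dark-induced asparagine synthetase, fell to 0.849, 0.559 and 0.616 FPKM in pifq, against 34.8, 20.4 and 36.3 FPKM in WT. ASN2, which is not a member of that list, rose to 97.8, 92.5 and 126 FPKM, against 7.8, 15.2 and 11.7 FPKM. SEN1, a dark-induced senescence gene, fell to 4.45, 2.92 and 4.21 FPKM, against 41.6, 22.3 and 35.9 FPKM. The genotypes did not overlap for any of these genes. Of 16 starch genes, 7 rose and 4 fell (2 fell without WT replicate 2). BAM3, a beta-amylase of starch breakdown, rose to 59, 71.6 and 113 FPKM, against 11.5, 9.41 and 3.22 FPKM, and GBSS1, the granule-bound starch synthase, to 27.3, 23.8 and 38.6 FPKM, against 3.63, 6.68 and 2.6 FPKM. GPT2, a glucose-phosphate translocator, fell to 4.45, 1.1 and 0.865 FPKM, against 4.58, 22.8 and 5.93 FPKM, and its call was lost without pifq replicate 3 and without WT replicate 2. Of 18 abscisic acid and cold genes, 1 rose and 10 fell (6 fell without pifq replicate 1 or without WT replicate 2). KIN1, a cold-induced gene, fell to 35.7, 47.2 and 61.5 FPKM, against 168, 266 and 177 FPKM, and P5CS1, of proline synthesis, rose to 416, 497 and 659 FPKM, against 218, 259.5 and 175 FPKM. Of 13 seed reserve genes, 0 rose and 7 fell (4 fell without WT replicate 2, 11 after median-ratio scaling). MLS, the malate synthase that turns seed oil toward sugar, fell to 25.9, 31.2 and 25.5 FPKM in pifq, against 55.2, 106 and 67.4 FPKM in WT. For all 13 the change was less negative in hypocotyls than in cotyledons by the test of the difference, and WT replicate 2 held seed storage transcripts whose part in the fall was not tested.

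Among clock genes the morning pair rose and many evening genes fell. The morning factors LHY and CCA1 repress evening genes through the evening element, and evening factors repress the morning pair in turn. Of 23 clock genes, 7 rose and 14 fell (median -0.41; 10 fell without WT replicate 2). For 22 the genotypes did not overlap, against 57.5% of all genes tested. LHY (AT1G01060) had 113, 118 and 167 FPKM in pifq and 10.9, 12 and 10.4 FPKM in WT (log2 change 3.44, SE 0.18, adjusted p = 5.98e-10), and CCA1 88.4, 99.2 and 132 FPKM in pifq and 18.7, 17.1 and 14.3 FPKM in WT. LNK2 and RVE8, coactivator and activator of afternoon genes, rose to 72.7 ± 8.89 and 48.4 ± 6.42 FPKM in pifq, against 13.5 ± 1.6 and 13.2 ± 2.88 FPKM in WT. Among evening genes, ELF4 fell to 3.53, 7.57 and 3.59 FPKM in pifq, against 46.8, 55.8 and 43.5 FPKM in WT (log2 change -3.13), and FKF1, a blue-light F-box protein, to 0.171, 0.456 and 0.111 FPKM, against 7.42, 9.19 and 7.3 FPKM. PRR5, a repressor of the morning pair, fell to 3.41, 4.61 and 2.91 FPKM, against 26.6, 33.7 and 20.8 FPKM. TOC1, another such repressor, fell to 17.6 ± 2.12 FPKM, against 42.9 ± 5.2 FPKM, and LUX, the DNA-binding member of the evening complex, to 4.42 ± 0.435 FPKM, against 17.6 ± 0.386 FPKM. The hour of harvest is not given in the sources used here, and a difference in clock phase and one in level cannot be told apart from 1 time.

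**Figure D4:**
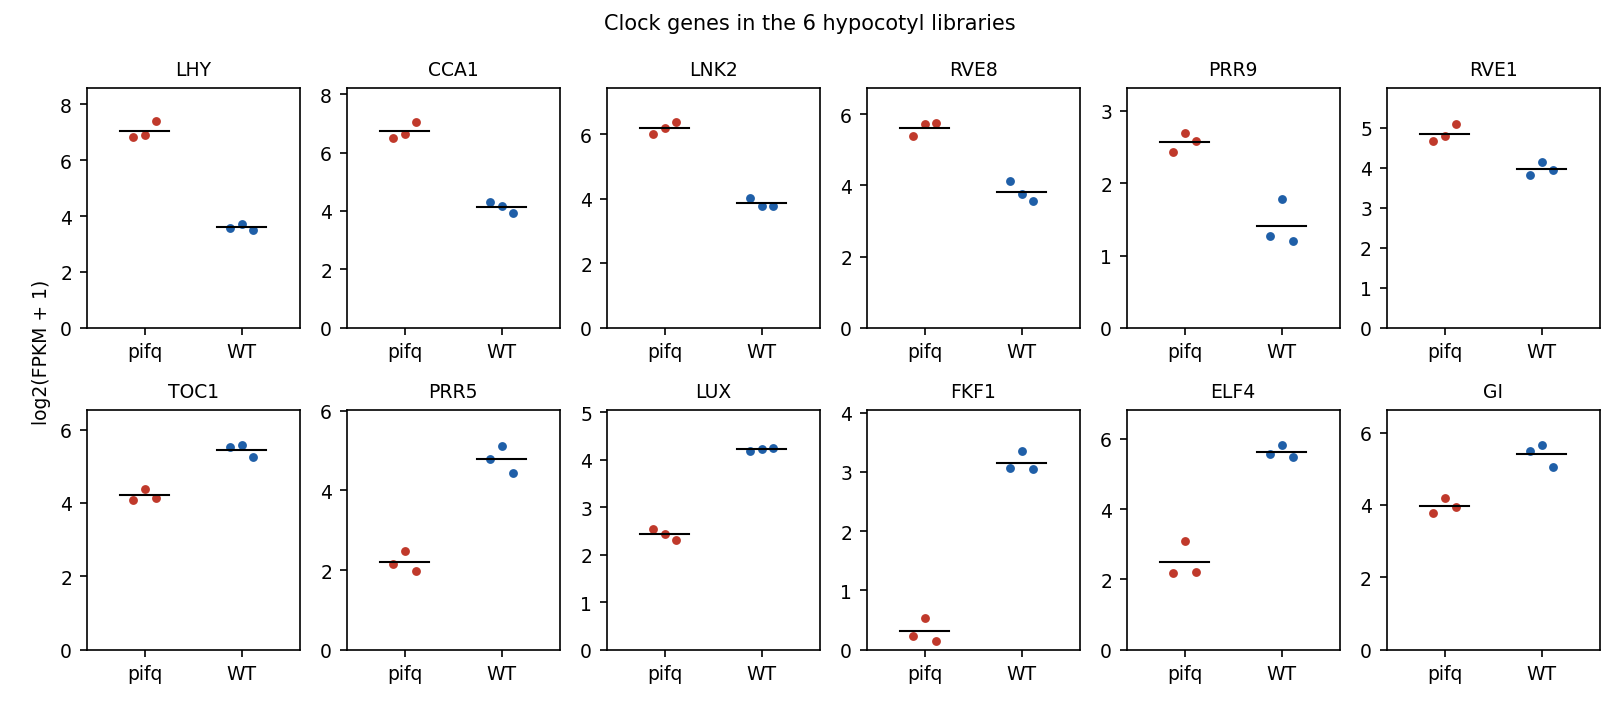
Level on the log2(FPKM + 1) scale (vertical axis) of 12 clock genes in the 3 pifq (left, red) and 3 WT (right, blue) hypocotyl libraries, 1 point a library and a line at the mean. The upper row, LHY to RVE1, is higher in pifq and the lower row, TOC1 to GI, lower, with no overlap in any panel.

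The promoters of 6 of these genes are printed as examples of where the clock-related motifs lie. Over the 300 bases read per gene, 7 of 23 clock promoters held an evening element. As 14 clock genes fell, not every gene that fell holds one. How the motifs divide between rises and falls within the list was not counted. Each run is the 250 bases before the annotated start, TAIR10.1 genome of RefSeq, 5′ to 3′ on the strand of the gene, and capitals mark a G-box (CACGTG, the same on both strands) or an evening element (AAAATATCT or its reverse complement AGATATTTT). LHY (chr1:37872-38121, minus strand) and CCA1 (chr2:19245341-19245590, plus strand) each show 1 G-box, at 80 and 193 bases before the start. PRR5 (chr5:8358547-8358796, minus strand), TOC1 (chr5:24674713-24674962, plus strand), FKF1 (chr1:25508389-25508638, plus strand) and LUX (chr3:17182792-17183041, plus strand) each show an evening element, and LUX a G-box as well.
LHY: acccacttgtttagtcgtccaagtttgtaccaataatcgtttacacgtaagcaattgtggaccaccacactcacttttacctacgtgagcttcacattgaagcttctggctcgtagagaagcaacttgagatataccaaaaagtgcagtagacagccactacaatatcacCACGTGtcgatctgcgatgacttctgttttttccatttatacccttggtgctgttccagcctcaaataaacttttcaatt
CCA1: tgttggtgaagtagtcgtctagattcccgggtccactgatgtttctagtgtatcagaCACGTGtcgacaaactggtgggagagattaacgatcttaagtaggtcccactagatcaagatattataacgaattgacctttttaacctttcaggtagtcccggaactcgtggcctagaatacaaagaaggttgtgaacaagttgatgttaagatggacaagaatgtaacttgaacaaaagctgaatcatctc
PRR5: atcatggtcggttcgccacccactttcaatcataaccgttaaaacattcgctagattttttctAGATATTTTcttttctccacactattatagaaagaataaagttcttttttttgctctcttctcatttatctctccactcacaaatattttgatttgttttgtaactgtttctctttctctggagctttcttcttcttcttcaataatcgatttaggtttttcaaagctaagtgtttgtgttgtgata
TOC1: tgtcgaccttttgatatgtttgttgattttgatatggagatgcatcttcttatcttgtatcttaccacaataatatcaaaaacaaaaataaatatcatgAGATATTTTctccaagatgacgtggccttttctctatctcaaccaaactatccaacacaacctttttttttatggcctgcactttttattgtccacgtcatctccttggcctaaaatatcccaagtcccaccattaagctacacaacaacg
FKF1: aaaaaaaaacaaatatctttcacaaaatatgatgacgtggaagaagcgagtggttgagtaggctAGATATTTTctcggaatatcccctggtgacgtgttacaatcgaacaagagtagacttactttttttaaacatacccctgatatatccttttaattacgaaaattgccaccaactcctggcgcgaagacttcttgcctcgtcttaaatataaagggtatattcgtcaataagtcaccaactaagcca
LUX: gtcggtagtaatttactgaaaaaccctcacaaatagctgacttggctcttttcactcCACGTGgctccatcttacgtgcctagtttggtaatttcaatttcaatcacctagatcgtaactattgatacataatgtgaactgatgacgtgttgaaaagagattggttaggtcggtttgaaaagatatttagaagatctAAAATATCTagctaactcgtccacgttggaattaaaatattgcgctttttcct

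Over the 300 bases read per gene, an evening element was found in 7 of 23 clock promoters (30.4%) and a G-box in 11 (47.8%), against 2.99% and 9.15% of all 17825. Among genes called at least 2-fold lower, 6.65% held an evening element, against 2.41% of those called at least 2-fold higher. A G-box or a PBE-box lay in 434 of 1578 promoters of genes called at least 2-fold higher (27.5%) and in 246 of 992 of genes called at least 2-fold lower (24.8%), against 20.6% of all. The evening element was chosen after the clock values were seen, and no match or its absence says whether a factor binds there.

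Division and replication genes, at low levels, rose more often than they fell. Of 30 cell cycle genes, 27 rose and 0 fell, 17 of the rises by at least 2-fold, with a median log2 change of 1.04, and they summed to 388 to 417 FPKM in pifq and 195 to 219 FPKM in WT. KN, the syntaxin of the cell plate, had 25.6, 20.3 and 23.9 FPKM in pifq and 9.17, 6.88 and 8.09 FPKM in WT. MCM3, of the replication helicase, had 7.19, 5.64 and 8.12 FPKM in pifq and 1.41, 1.78 and 2.38 FPKM in WT, and HIK, a kinesin of cytokinesis, 7.99, 5.02 and 9.98 FPKM in pifq and 0.959, 2.14 and 2.13 FPKM in WT. The genotypes did not overlap for 28 of the 30, against 57.5% of all genes tested. CDKB2;1 was not called at 32.4 ± 1.03 FPKM in pifq and 28.3 ± 0.863 FPKM in WT. Of 8 genes of endoreduplication and of inhibitors of cyclin-dependent kinases, 3 rose and 1 fell, also after median-ratio scaling (median 0.24). The member that fell was SIM, such an inhibitor in endoreduplicating cells, to 2.27, 2.56 and 1.28 FPKM, against 5.12, 6.56 and 7.66 FPKM. Of 8 meristem and boundary markers that passed the filter, 4 rose and 1 fell (3 and 1 after median-ratio scaling), beside 37.3% and 17.5% of all genes. ANT, a growth factor gene of organ primordia, rose to 10.2, 11.2 and 11.2 FPKM, against 2.5, 3.05 and 3.57 FPKM, and KNAT1, which is also expressed in stem tissue, to 113, 106 and 159.5 FPKM, against 37.6, 52.7 and 53.7 FPKM. The part of shoot apex tissue in these values was not tested.

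Set beside the other organs, the hypocotyl effect differed from that in the hook for 5305 genes (29.5%) and from that in the cotyledon for 8338 (46.4%) by the interaction test, and 586 genes were called in opposite directions in hypocotyl and hook. Of the photosynthesis lists, 1 of 32 photosystem core genes differed from the hook and 1 from the cotyledon, and 3 and 5 of 20 light-harvesting genes. Of the SAUR genes, 22 of 31 (71%) differed from the hook, 19 of them with a more positive change in the hypocotyl, and the median log2 change was 1.68 in hypocotyls and -0.32 in hooks. SAUR19 changed by 2.04 in hypocotyls and -0.7 in hooks (difference 2.73, adjusted p = 0.000274). Of 22 cytoskeleton genes, 19 differed, all more positive in the hypocotyl, and of 15 primary wall genes 12 differed, 11 of them more positive in the hypocotyl. CSLC4 rose in hypocotyls and fell in hooks (log2 changes 1.36 and -1.62), and XTH7 did the reverse (-1.48 and 2.47). Secondary wall genes differed for 13 of 19 and cell cycle genes for 20 of 30, all of them with a less positive change in the hypocotyl.

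**Figure D5:**
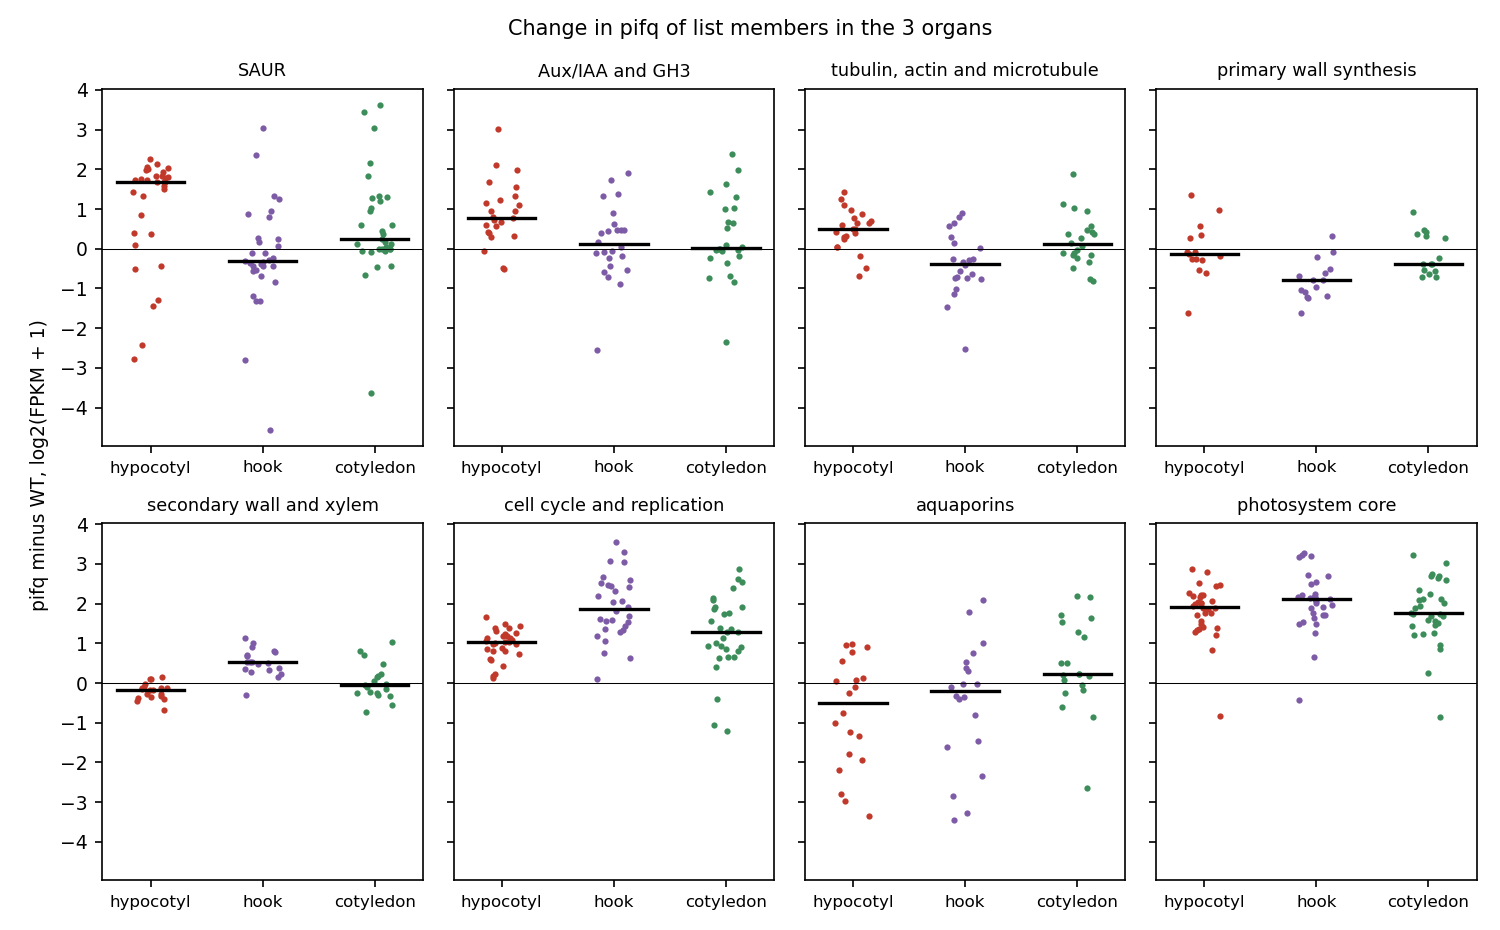
Log2 change, pifq minus WT on the log2(FPKM + 1) scale (vertical axis), of the members of 8 gene lists in hypocotyls (red), hooks (purple) and cotyledons (green), 1 point a gene and a bar at the median. SAUR medians are 1.68, -0.32 and 0.24 in that order, and photosystem medians 1.91, 2.11 and 1.76.

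AT2G34700 changed by -5.6 in hypocotyls, 0.12 in hooks and 0.02 in cotyledons on the log2 scale. EXPA16 changed by -4.4, -0.51 and -0.12 in the same order, and the peroxidase AT5G19890 by -4.12, -0.1 and 0.0. Among the gains, MAH1 changed by 5.24, 2.31 and 0.01. The difference from the hook and that from the cotyledon passed the test for each of these genes.

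The summed levels of organelle-encoded transcripts overlapped between the genotypes. Chloroplast-encoded FPKM summed to 2867, 4307 and 316 in pifq hypocotyls and to 1951, 3433 and 2433 in WT (ratio of geometric means 0.621, exact two-sided permutation test over 3 and 3 libraries, p = 0.9). Mitochondrion-encoded FPKM summed to 2132, 4788 and 226 in pifq and to 3977, 15436 and 8337 in WT (ratio 0.165, exact permutation p = 0.2). The smallest p this design allows is 0.1. In both sums pifq replicate 3 was the lowest, and without it the chloroplast ratio was 1.39 (exact permutation p = 0.4).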

How the data were processed

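RNA-seq of 18 libraries, 3 for each of 6 groups of genotype and organ, was used as FPKM values deposited by the authors, 1 file a library, each with 26073 genes. That the unit is FPKM was read from the values. The submitters' processing notes name HISAT2, DESeq2 and TAIR10, and neither the counter nor its use of strand is given in the sources used here. Between 99.37% and 99.5% of low values were whole reads within 0.05, from which depth was recovered. Values were tested as log2(FPKM + 1) with limma 3.58.1 (R 4.3.3), which understates changes of low genes. The fit had 6 group means, 12 residual degrees of freedom and Benjamini-Hochberg adjustment over 17981 genes, and was tested on simulated data. Differences between organs were interaction terms. The members and the 47 gene lists (901 loci, 820 tested, 77 below the filter, 4 not analysed here) were chosen with earlier results of these data known. Genes were named by a rule: the PIF loci, the 12 largest rises and 12 largest falls, the 10 largest gains and losses in FPKM, up to 3 called rises and 3 called falls per list with its most abundant uncalled member, genes near absent in 1 genotype, and the 6 largest differences between organs each way. The rule picked 313 genes, not all of which are reported here. Other genes named were chosen after their values were seen, and list counts include members that passed only through the group in which they are high. Promoters came from the TAIR10.1 genome of RefSeq. Same-numbered pifq and WT libraries correlated in their deviations at -0.011, 0.136 and 0.262, and differently numbered ones at -0.302 to 0.118. These values do not settle whether the numbers mark shared batches. No label says that they do, and the main fit did not use the numbers as pairs.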

Additional observations from a re-analysis of the deposited data

Results flagged for a closer look

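The effect of pifq in hypocotyls differed from that in hooks or cotyledons by the interaction test for the genes below, all of them called in hypocotyls, and each value is the log2 change in hypocotyls minus that in the other organ. Against the hook the greatest positive differences were those of ATMG00020 (4.56), ATMG00030 (4.21), ATMG01390 (4.13), ATCG00950 (3.76), CLE5 (3.75) and ATCG01180 (3.53). All but CLE5, a signalling peptide gene, are organelle-encoded. The organelle share was 0.87%, 1.61% and 0.097% in pifq hypocotyls and 1.01%, 3.34% and 1.85% in WT hypocotyls. In hooks it was 0.1% to 0.119% in pifq and 2.08% to 4.11% in WT. These genes, CLE5 included, were lower in pifq hypocotyls too, so their positive differences stand for a smaller fall than in hooks. The hypocotyl calls of CLE5, ATMG00020 and ATMG00030 were lost without pifq replicate 3, and those of ATMG00020 and ATMG00030 also without WT replicate 2. The greatest negative differences from the hook were those of AT2G34700 (-5.72), AZI1 (-4.87), AT4G37220 (-4.29), AT2G16005 (-4.22), AT2G25150 (-4.21) and AT5G19890 (-4.03).

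Opposite calls in hypocotyl and hook with a large difference were found for SAUR15 (3.04), CSLC4 (2.98), AT5G19110 (2.91) and SIG5 (2.65), which rose in hypocotyls and fell in hooks, and for XTH7 (-3.94) and PAP17 (-3.0), which fell in hypocotyls and rose in hooks.

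Against the cotyledon the greatest positive differences were those of MAH1 (5.23), ATCG00960 (5.1), AT5G42530 (5.01), ENSRNA049495549 (4.82), ATCG00950 (4.76) and ATCG01180 (4.06). The greatest negative ones were those of AT2G34700 (-5.62), AT2G25150 (-5.38), AT4G37220 (-5.3), AZI1 (-5.18), AT3G54830 (-4.96) and PS2 (-4.76). The hypocotyl call of ATCG00960 was lost without pifq replicate 3, WT replicate 2 or WT replicate 3, and that of PS2 without pifq replicate 1 or WT replicate 1. ATCG00960, ATCG00950 and ATCG01180 were lower in pifq hypocotyls too, by less than in cotyledons. The organelle share was 0.145% to 0.227% in pifq cotyledons and 2.58% to 4.05% in WT cotyledons.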

How the results depend on the processing

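Median-ratio scaling moved the counts of calls to 4360 higher and 5141 lower, and the cause was not tested. Limma-voom on recovered reads called 6610 higher and 3161 lower. No call of a named gene changed direction under the alternatives run. Of 3032 values of the 204 genes named, 38 lost the call and 17 gained one. Leaving out 1 library at a time gave 5969 to 6499 genes higher and 2710 to 3150 lower. The chloroplast ratio ranged from 0.376 to 1.39 and the mitochondrion ratio from 0.0868 to 0.399 in those runs, and the cause was not tested. With the organelle share as a covariate 6076 genes were higher and 2572 lower, and 9 of the named genes lost their call, among them XTH17, TCH4, MLS and HY5. Genes whose effect differed between hypocotyl and hook numbered 5305 in the main fit, 3782 with that covariate and 5229 after median-ratio scaling. Between hypocotyl and cotyledon the numbers were 8338, 6961 and 7147 in that order. With a pseudocount of 0.1, 2240 genes were called at least 2-fold higher. Reading only the 250 bases before the start, a G-box or PBE-box lay in 23.2% of promoters of genes at least 2-fold higher and in 21.2% of those at least 2-fold lower, as fewer bases were read. The main fit did not use the replicate numbers as pairs. The 6 hypocotyl libraries alone gave 5462 higher and 2582 lower calls. A replicate block over the same 6 libraries gave 5024 higher and 2464 lower calls, with 1580 and 1003 of at least 2-fold. Depth of 13851968 to 20701160 reads limits genes near 1 FPKM. Of the 205 genes whose third-highest library lay between 1 and 1.1 FPKM, just inside the filter, 54 were called higher and 15 lower, and 219 genes lay just outside, between 0.9 and 1 FPKM.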
